A study of Rattus norvegicus with 8 samples.

Results

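The miR-221 and miR-222 cluster is a pair of microRNA (miRNA) hairpins, and each hairpin yields a 3p and a 5p arm. All 4 arms (rno-miR-221-3p, rno-miR-221-5p, rno-miR-222-3p and rno-miR-222-5p) were taken by name from the 719 miRNAs of a rat miRNA array. All 4 were among the 243 miRNAs tested, a miRNA being tested where at least 1 group had it detected on both of its arrays. The cells were C6, a rat line described by its submitters as glioblastoma, grown with horse serum and fetal bovine serum. Haloperidol was given at 2 µg/ml, risperidone at 4 µg/ml and clozapine at 25 µg/ml, each added daily over 5 days, and control cells stayed untreated, with no vehicle named. Each group had 2 arrays, which the design calls biological repeats of this 1 line.

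A miRNA hairpin is cut into a duplex, of which the main arm is loaded into the Argonaute silencing complex while the passenger arm is mostly degraded. For miR-221 and miR-222 the 3p arm is the main arm. Both main arms are known for repressing the cell-cycle inhibitors p27 (Cdkn1b) and p57 (Cdkn1c) and are often raised in human gliomas, where they favour growth. Haloperidol is a first-generation antipsychotic that blocks dopamine D2 receptors, and risperidone and clozapine are second-generation drugs that also block serotonin receptors.

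The mature sequences are shown because the 2 main arms share a seed, the stretch that pairs with target messages, and the passenger arms do not. They are RefSeq's for rat build GRCr8 and were matched by name for all 4 arms, with the seed (bases 2 to 8) in capitals.
rno-miR-221-3p: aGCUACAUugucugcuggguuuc
rno-miR-222-3p: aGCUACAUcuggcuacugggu
rno-miR-221-5p: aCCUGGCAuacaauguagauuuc
rno-miR-222-5p: gGCUCAGUagccaguguagau
The main arms were identical over their first 8 bases and, beyond these, shared at most 6 bases in a row. No other entry among the 724 mature rat miRNAs in the table carried their seed. The passenger arms shared 0 first bases, and each had a seed of its own in that table. On the plus strand of chromosome X the Mir222 hairpin (chrX:6022621-6022723) is followed, after 458 bases, by the Mir221 hairpin (chrX:6023182-6023290). Within them lie miR-222-5p at chrX:6022642-6022662, miR-222-3p at chrX:6022682-6022702, miR-221-5p at chrX:6023206-6023228 and miR-221-3p at chrX:6023246-6023268. In RefSeq's gene table both hairpins fall inside the span of the long non-coding RNA LOC120099382, which is on the same strand, and of LOC120099384, on the opposite strand. Whether they are exonic or intronic there is not given in that table.

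The 8 arrays sat on 1 slide, on which the row was also the replicate number and the column was also the group, so column and group cannot be told apart. Between 193 (risperidone replicate 2) and 254 (haloperidol replicate 1) miRNAs were detected per array. The 75th percentile of signal, taken over 291 probes that were above background everywhere, was lowest on risperidone replicate 2 (387.6) and lay between 689 and 1480 on the other 7. Control replicate 1 stood apart, with a mean squared log2 deviation from the mean of the other arrays of 0.544, against 0.0893 to 0.297 on the other 7. miR-21-5p, widely raised in gliomas, was detected on 8 of 8 arrays, at a log2 level of 7.23 ± 0.28 (SD, n = 8). Of the markers of other cell types, the neuronal miR-124-3p was detected on 0 arrays, the leukocyte miR-223-3p and miR-142-3p on 4 and 3, the erythrocyte miR-451-5p on 2, and miR-9a-5p and miR-338-3p, of neural and oligodendrocyte cells, on 8. The names rno-miR-219a-5p and rno-miR-486 were not among the array's entries used here.

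Levels are log2 of the summed background-subtracted signal of a miRNA's 2 probes over the array's 75th percentile, so 0 is that percentile and differences between groups are log2 fold changes. Brightness also depends on the probe, so no arm's level is compared with that of another arm. Each probe had 10 spots. The coefficient of variation over the spots of 1 probe on 1 array, without outlier spots, was 0.522% to 4.09% for miR-221-3p, 1.34% to 6.38% for miR-222-3p and 1.03% to 8.44% for miR-222-5p. For these 3 arms all spots of both probes were well above background on every array.

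The 2 main arms were lower in the cells given each drug than in untreated cells, with log2 fold changes between -0.42 and -0.26, and in each of these comparisons both drug arrays lay below both control arrays. None of these differences passed the test after adjustment over all 243 miRNAs. miR-221-3p had log2 levels of 2.90 and 2.88 on the haloperidol arrays, 2.88 and 2.89 on the risperidone arrays, 2.99 and 2.98 on the clozapine arrays, and 3.27 and 3.21 on the control arrays. The drug arrays were all below the control arrays, and within each group the 2 arrays lay close together. Under this scaling the gap between the lower control and the higher drug array was 0.31, 0.32 and 0.22 with haloperidol, risperidone and clozapine. The 2 arrays of a group differed by at most 0.062. No share of the 243 miRNAs is given for such a gap or for a separation of all drug arrays. Before scaling, the summed signal on haloperidol replicate 1 (11050) lay above both control arrays (10045 and 8826). The other drug arrays lay below both, so the haloperidol gap depends on the scaling. In bulk RNA, fewer cells with a miRNA and less of it per cell cannot be told apart.

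With haloperidol the mean of miR-221-3p was 2.89 ± 0.014, against 3.24 ± 0.044 in controls (SD, n = 2 each), a log2 fold change of -0.35 (95% interval -0.63 to -0.069, limma adjusted p = 0.581). With risperidone it was 2.88 ± 0.0041, a log2 fold change of -0.36 (-0.63 to -0.077, limma adjusted p = 0.454). With clozapine it was 2.98 ± 0.0079, a log2 fold change of -0.26 (-0.54 to 0.022, limma adjusted p = 0.374). These correspond to levels 1.27-fold, 1.28-fold and 1.19-fold lower than in controls. The 2 probes of miR-221-3p gave -0.34 and -0.35 for haloperidol, -0.34 and -0.36 for risperidone, and -0.24 and -0.27 for clozapine.

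**Figure D1:**
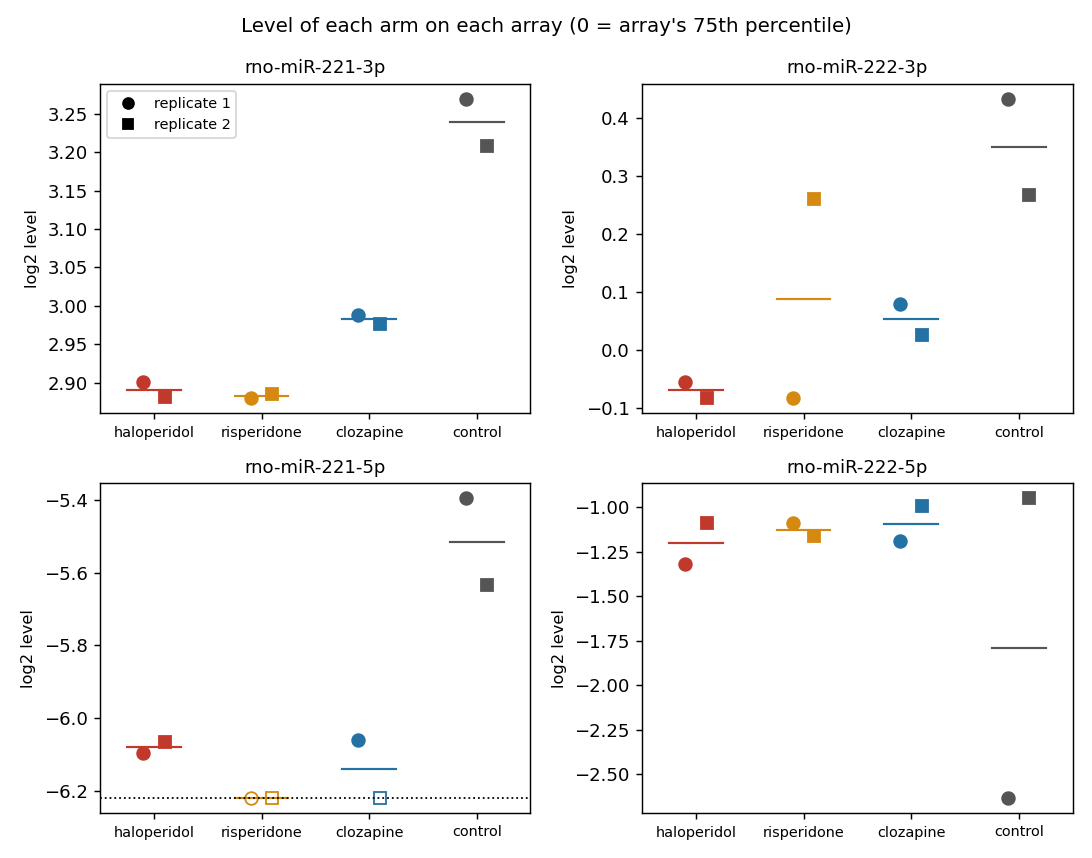
Log2 level (0 is the array's 75th percentile) of the 4 arms on each of the 8 arrays, by group, with a line at each group mean; circles are replicate 1 and squares replicate 2, open marks lie at the floor (dotted line, -6.22), and the vertical scale differs between panels. Both main arms lie lower on all 6 drug arrays than on the control arrays, by only 0.0070 for miR-222-3p on risperidone replicate 2. No share of the 243 miRNAs is given for all 6 arrays, and 1 drug at a time it was 32.1% to 33.7%. miR-222-5p is low on control replicate 1 (-2.63) and between -1.32 and -0.95 on the other 7 arrays.

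miR-222-3p had log2 levels of -0.054 and -0.082 on the haloperidol arrays, -0.083 and 0.26 on the risperidone arrays, 0.079 and 0.027 on the clozapine arrays, and 0.43 and 0.27 on the control arrays. The haloperidol and clozapine arrays lay clear of the controls, whereas risperidone replicate 2 lay only 0.0070 below control replicate 2. With haloperidol the log2 fold change was -0.42 (95% interval -0.82 to -0.017, limma adjusted p = 0.581), at -0.068 ± 0.020 against 0.35 ± 0.12 in controls (SD, n = 2 each). With risperidone it was -0.26 (-0.66 to 0.14, limma adjusted p = 0.521), at 0.089 ± 0.24. With clozapine it was -0.30 (-0.70 to 0.10, limma adjusted p = 0.511), at 0.053 ± 0.037. The risperidone difference was thus not larger than the 0.34 between the 2 risperidone arrays, and it was -0.090 without risperidone replicate 1 and -0.43 without risperidone replicate 2. The 2 probes of miR-222-3p gave -0.43 and -0.41 for haloperidol, -0.24 and -0.27 for risperidone, and -0.30 and -0.29 for clozapine.

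The direction of the main arms has to be read against all miRNAs, of which 60.5%, 61.7% and 66.3% had log2 fold changes below 0 with haloperidol, risperidone and clozapine, with medians of -0.15, -0.15 and -0.17. Both drug arrays lay below both control arrays for 32.1%, 32.9% and 33.7% of the 243 miRNAs under the 3 drugs, so this alone does not set the main arms apart. Relative to the median, miR-221-3p was at -0.20, -0.21 and -0.083, and miR-222-3p at -0.27, -0.11 and -0.12. For miR-221-3p 63, 68 and 100 of the 243 miRNAs had lower log2 fold changes, and for miR-222-3p 41, 96 and 90. limma called 0% of the 243 miRNAs at an adjusted p under 0.05 for each drug, and 6.58%, 8.64% and 14.8% had an unadjusted p under 0.05. The unadjusted p was 0.0231, 0.0212 and 0.0647 for miR-221-3p and 0.0438, 0.159 and 0.118 for miR-222-3p by limma. It was smaller for miR-221-5p (0.00846, 0.00318 and 0.00545 by limma), which lay at or near the floor under each drug. With the replicate number as a block limma called 0, 1 and 2 miRNAs, which were miR-338-5p for risperidone and miR-338-5p with miR-3561-5p for clozapine, named here after their values were seen. None was an arm of this cluster, whose smallest adjusted p with the block was 0.20, 0.083 and 0.066, each for miR-221-5p.

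Scaling decided the sign of the main arms for 2 of the drugs. With the 75th percentile taken over all probes, miR-221-3p stood at 0.23 and 0.39 with risperidone and clozapine, and miR-222-3p at 0.33 and 0.35, but the median of all miRNAs was then 0.35 and 0.42. Without scaling the medians were 0.092, -0.64 and -0.55 with haloperidol, risperidone and clozapine. Relative to the median of all miRNAs both main arms lay below 0 under each of the 5 scalings and each drug. For miR-221-3p this value ranged over the scalings from -0.31 to -0.18 with haloperidol, -0.33 to -0.12 with risperidone and -0.18 to -0.034 with clozapine. For miR-222-3p it ranged from -0.38 to -0.25, -0.29 to -0.024 and -0.35 to -0.075. Both percentile scalings and no scaling differ only in the factor by which each array is divided. Subtracting the median removes that factor except through the floor, so the agreement among them was largely fixed in advance.

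**Figure D2:**
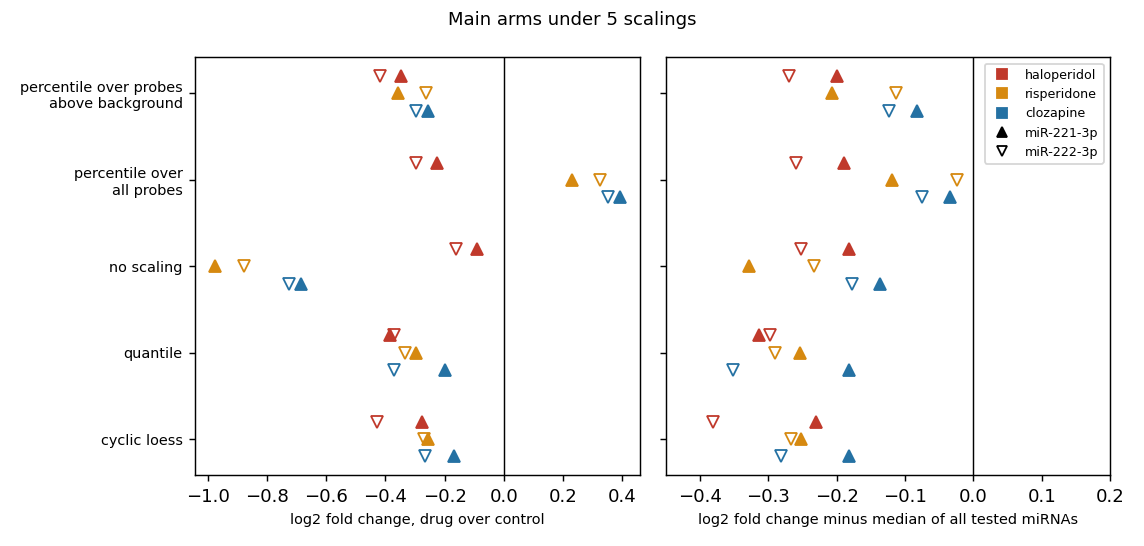
Log2 fold change over control of miR-221-3p and miR-222-3p under 5 scalings of the arrays, as fitted on the left and minus the median of all 243 tested miRNAs on the right; colours are the drugs, filled triangles are miR-221-3p and open triangles miR-222-3p. On the left the risperidone and clozapine values lie above 0 with the percentile over all probes (0.23 to 0.39), and on the right all values lie below 0. Both percentile scalings and no scaling differ on the right only through the floor.

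The main arms kept nearly the same distance from each other on most arrays. The log2 difference of miR-221-3p minus miR-222-3p, taken relative to its mean in controls, was 0.066 and 0.075 on the haloperidol arrays, 0.074 and -0.26 on the risperidone arrays, 0.020 and 0.061 on the clozapine arrays, and -0.052 and 0.052 on the control arrays. Risperidone replicate 2, the array with the lowest 75th percentile, was the 1 array outside -0.052 to 0.075. Depth of signal on that array moves with this value, and its part in the result was not tested.

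The passenger arm miR-221-5p was close to background and lower in drug-treated cells than in controls, and its differences did not pass the test either. Its summed signal was 21.7 and 14.4 on the haloperidol arrays, 14.3 and -2.78 on the risperidone arrays, 11.9 and 6.10 on the clozapine arrays, and 24.7 and 19.2 on the control arrays. It was called detected on both haloperidol arrays, 1 risperidone array, 1 clozapine array and both control arrays. The negative-control spots had medians of 1.95 to 3.53 per spot on the 8 arrays and 95th percentiles of 5.20 to 7.14. One probe of miR-221-5p had 0 of 10 spots well above background on every array. The other had 9 and 5 of 10 with haloperidol, 3 and 0 with risperidone, 1 and 0 with clozapine, and 10 and 9 in controls.

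After scaling, miR-221-5p stood at -6.09 and -6.06 with haloperidol, at the floor of -6.22 on both risperidone arrays, at -6.06 and the floor with clozapine, and at -5.40 and -5.63 in controls. All drug arrays lay below the controls, at the floor or close to it. With haloperidol the log2 fold change was -0.56 (95% interval -0.92 to -0.21, limma adjusted p = 0.581). Under this scaling the risperidone level was at least 1.63-fold lower than in controls, measured against the floor (limma adjusted p = 0.243). With clozapine 1 of the 2 arrays was at the floor, so no measured fold change is given, and the fitted -0.62 (limma adjusted p = 0.270) became -0.92 with the floor at 0.5 of its value. Over the 5 scalings the fitted value ranged from -0.56 to -0.25 with haloperidol, -0.72 to -0.20 with risperidone and -0.82 to -0.23 with clozapine. With normexp background correction the value turned to 0.42 for risperidone and 1.06 for clozapine, and the cause was not tested.

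The passenger arm miR-222-5p had a mean above that of controls under each drug, did not pass the test, and owed this direction to 1 control array. Its log2 levels were -1.32 and -1.09 on the haloperidol arrays, -1.09 and -1.16 on the risperidone arrays, -1.19 and -0.99 on the clozapine arrays, and -2.63 and -0.95 on the control arrays. Control replicate 1 lay far below all other arrays, and control replicate 2 was the highest of the 8. Fitted over all arrays the log2 fold changes were 0.59 (95% interval -0.74 to 1.92), 0.66 (-0.67 to 2.00) and 0.70 (-0.63 to 2.03) with haloperidol, risperidone and clozapine (limma adjusted p = 0.636, 0.551 and 0.582). Controls had a mean of -1.79 ± 1.19 (SD, n = 2), and the drug means were -1.20 ± 0.16, -1.13 ± 0.053 and -1.09 ± 0.14. The difference between the control replicates (1.68) exceeded each of the 3 drug differences.

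Which control array is kept decides the sign. Without control replicate 1 the values for miR-222-5p were -0.25 (-0.70 to 0.20), -0.18 (-0.63 to 0.28) and -0.14 (-0.59 to 0.31) with haloperidol, risperidone and clozapine (limma adjusted p = 1, 0.960 and 0.911). Without control replicate 2 they were 1.43, 1.51 and 1.54 (limma adjusted p = 0.0445, 0.0303 and 0.0418), when limma called 5, 6 and 7 of the 243 miRNAs. In both of these fits the controls are 1 array, which is assumed to vary like the drug groups, whose arrays alone supply the spread, so these p-values do not include the difference of 1.68 between the control arrays. Within slide row 1 the drug-minus-control differences were 1.31, 1.54 and 1.44, and within row 2 they were -0.14, -0.21 and -0.044. Both probes showed the low array: control replicate 2 was 3.08-fold and 3.28-fold above control replicate 1 on the 2 probes of miR-222-5p. Over all 243 miRNAs the log2 difference between the control arrays had a median of 0.012 and an SD of 0.68, and 9 were more negative than miR-222-5p. For miR-221-3p, miR-222-3p and miR-221-5p the same difference was 0.062, 0.17 and 0.24. The main arms therefore did not share the low value of control replicate 1. They also lay below 0 under each drug with either control array left out. miR-221-3p ranged from -0.39 to -0.23 and miR-222-3p from -0.50 to -0.18. The median of all miRNAs was then below 0 too. Without control replicate 1 it was -0.10, -0.13 and -0.18 with haloperidol, risperidone and clozapine. Without control replicate 2 it was -0.14, -0.15 and -0.19. Without control replicate 1 miR-222-3p was at -0.34, -0.18 and -0.21, and miR-221-3p at -0.32, -0.33 and -0.23. There miR-222-3p with risperidone and both main arms with clozapine lay near the median.

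**Figure D3:**
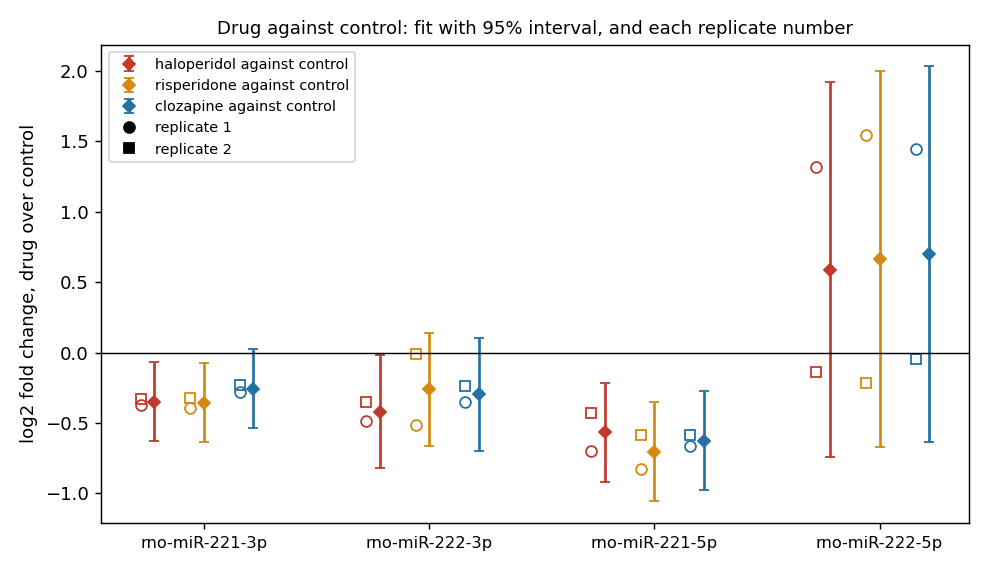
Log2 fold change, drug over control, of each arm: diamonds with bars are the limma values with 95% intervals, and open marks are the differences within replicate 1 (circles) and replicate 2 (squares); for miR-221-5p the risperidone and clozapine values and intervals rest on arrays at the floor. For both main arms and miR-221-5p the 2 replicate numbers lie on the same side of 0 under each drug, whereas for miR-222-5p they lie on opposite sides (1.31 to 1.54 in replicate 1 and -0.21 to -0.044 in replicate 2).

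The difference between the 2 arms of 1 hairpin, log2 3p minus log2 5p on the same array, does not depend on the factor by which an array is divided, except through the floor. It was fitted for the 50 hairpins with both arms tested. For the miR-222 hairpin, relative to its mean over the 8 arrays, the difference was -0.14 and -0.40 on the haloperidol arrays, -0.40 and 0.015 on the risperidone arrays, -0.14 and -0.39 on the clozapine arrays, and 1.66 and -0.19 on the control arrays. Control replicate 1 alone lay high, and control replicate 2 lay among the drug arrays. The change of the miR-222 arm difference against control was -1.01 (95% interval -2.37 to 0.36), -0.93 (-2.29 to 0.44) and -0.996 (-2.36 to 0.37) with haloperidol, risperidone and clozapine (limma adjusted p = 0.567, 0.541 and 0.578). Without control replicate 1 these became -0.083, -0.0026 and -0.072. Without control replicate 2 they were -1.93, -1.85 and -1.92, again with the controls being 1 array. The share of the 50 hairpins that changed as much in that fit is not given here. The arm difference of miR-222 was 1.85 higher on control replicate 1 than on control replicate 2, and 1 of the 50 hairpins had a larger value.

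For the miR-221 hairpin the arm difference relative to its mean was 0.0082 and -0.042 on the haloperidol arrays, 0.11 and 0.12 on the risperidone arrays, 0.061 and 0.21 on the clozapine arrays, and -0.32 and -0.14 on the control arrays. All drug arrays lay above both control arrays, a separation for which no share over the 50 hairpins is given here. With haloperidol the change against control was 0.22 (95% interval -0.31 to 0.75, limma adjusted p = 0.761). Both risperidone arrays and 1 clozapine array had miR-221-5p at the floor, so there the arm difference is a lower bound and the fitted changes, 0.35 and 0.37 (limma adjusted p = 0.543 and 0.578), depend on the floor. With the floor at 0.5 of its value they were 0.87 and 0.67 (limma adjusted p = 0.350 and 0.476). limma called 0% of the 50 hairpins for each drug, whose median change was -0.099, -0.0056 and -0.098. Both drug arrays lay below both control arrays for 22%, 16% and 12% of the hairpins. This was not so for miR-222 under any of the 3 drugs, since control replicate 2 lay between the drug arrays.

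**Figure D4:**
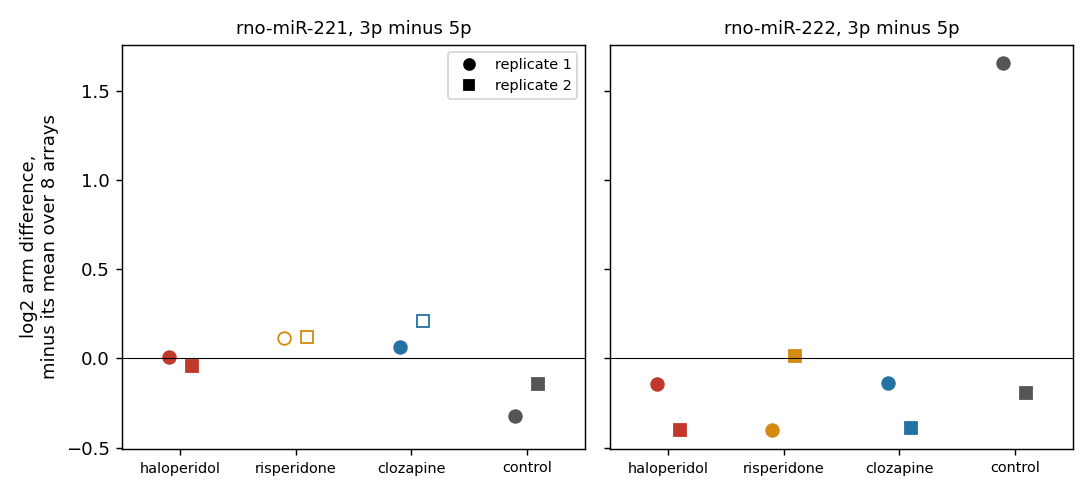
Log2 arm difference (3p minus 5p) of the miR-221 and miR-222 hairpins on each array, minus its mean over the 8 arrays; circles are replicate 1, squares replicate 2, and open marks have the 5p arm at the floor. For miR-221 the drug arrays (-0.042 to 0.21) lie above the controls (-0.32 and -0.14), and for miR-222 control replicate 1 (1.66) stands far above the other 7 arrays. No share of hairpins with drug arrays above controls is given.

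Between the drug groups the doses differed, so their levels are set side by side. For miR-221-3p the order from low to high was risperidone, haloperidol, clozapine and control. Both clozapine arrays lay above both arrays of the other drugs, by 0.091 over haloperidol (95% interval -0.19 to 0.37) and 0.10 over risperidone (-0.18 to 0.38) in the means. For miR-222-3p the order was haloperidol, clozapine, risperidone and control, with both clozapine arrays above both haloperidol arrays and the risperidone arrays on either side of the clozapine arrays. For miR-221-5p it was risperidone, clozapine, haloperidol and control, all drug groups at or near the floor. For miR-222-5p it was control, haloperidol, risperidone and clozapine, all overlapping. No share of the 243 miRNAs with such separations between drugs is given here, so these separations do not set the arms apart. limma called 0% of the 243 miRNAs in each of the 3 comparisons between drugs, and 0% in the F test over the 4 groups. The F test's adjusted p was 0.798 for miR-221-3p, 0.814 for miR-222-3p, 0.677 for miR-221-5p and 0.849 for miR-222-5p.

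Other miRNAs known to promote glioma growth lay below their control level with 1 exception, and none passed the test. Of the 4 others listed, 3 lay below 0 under each drug, with medians of -0.16, -0.25 and -0.21, where all tested miRNAs had -0.15, -0.15 and -0.17. miR-93-5p, of a miR-17 paralogue cluster, was at -0.17, -0.25 and -0.33, and miR-26a-5p at -0.16, -0.25 and -0.082. miR-10b-5p was at the floor on 1 of 2 haloperidol arrays and on both risperidone and both clozapine arrays, against levels of -5.73 and -5.08 in controls, so its level with risperidone and with clozapine was at least 1.76-fold lower than in controls. miR-21-5p was at 0.14, 0.28 and 0.41. Of 8 miRNAs known to restrain glioma growth, 6 were tested and 5, 4 and 5 lay below 0, with medians of -0.29, -0.14 and -0.15. Among these miR-128-3p, which represses Bmi1, was at -0.40, -0.54 and -0.50, and the p53 target miR-34a-5p at 0.68, 0.32 and 0.064. The smallest limma adjusted p over both lists was 0.581, 0.454 and 0.326. All tested miRNAs had 60.5%, 61.7% and 66.3% below 0. With 4 and 6 tested miRNAs the lists are too small to be set apart from that share, and neither was tested as a set.

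The miRNAs closest to each arm over the 8 arrays were named by the root mean square difference of their log2 levels, each centred on its own mean, among the 184 others detected on every array. Closest to miR-221-3p were miR-15b-5p (0.068), miR-342-3p (0.068) and miR-25-3p (0.076), with miR-222-3p at rank 11 (0.11) and a median of 0.32 over all candidates. Closest to miR-222-3p were miR-92a-3p (0.092), miR-342-3p (0.096) and miR-1839-3p (0.10), with miR-221-3p at rank 4. Closest to miR-222-5p were miR-20a-3p (0.19), miR-18a-5p (0.20) and miR-19b-3p (0.21), arms of hairpins from the miR-17 polycistron, while miR-221-3p was at rank 94 (0.61). All these profiles share the same 8 arrays, and control replicate 1 held 83.7% of the squared deviation of miR-222-5p from its mean, so its likeness rests mostly on that array. For miR-221-3p and miR-222-3p that share was 43.7% and 41.1%. miR-221-5p was not detected on every array and has no such list.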

How the data were processed

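The authors deposited signals of unit intensity, made with Agilent Feature Extraction 10.7.3.1 per the file headers, linear and not scaled between arrays, with flags of unit other (0 or 1) for background, outlier spots and detection in the same deposited files. RNA (100 ng per array) was labelled with Cy3, per the labels. Outlier spots were dropped, the remaining background-subtracted signals averaged within a probe and summed per miRNA, and the sums scaled to the 75th percentile of 291 probes (a share over 0.5 of their spots well above background on all arrays), floored at the 5th percentile of detected values (0.0134) and taken to log2. In R 4.3.3, limma 3.58.1 with lmFit and eBayes fitted group means over all 8 arrays and 243 miRNAs (4 residual and 5.43 total degrees of freedom), with two-sided tests and Benjamini-Hochberg adjustment over all of them. The same was done for arm differences of 50 hairpins. The function was tested on simulated data. With 2 arrays on each side the smallest exact permutation p is 0.333, the p-values measure the spread between these cultures and arrays, and the number of arrays limits the precision. Same-numbered arrays shared a slide row, per the file headers, and their deviations from group means correlated at 0.16 to 0.71 over the 6 pairs of groups. The members and lists, and the rule naming miRNAs of similar profile, were chosen with earlier results of these data known. When 1 array was left out, its group kept 1 array, taken to vary like the others, and the tested miRNAs and the floor were kept. miRNAs were named from these lists and as the 3 closest profiles to each arm detected on all 8 arrays. Normexp used spot and background medians. Alternatives changed scaling, background correction, probe summary, filter, floor, arrays in the fit, block and variance model.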

Additional observations from a re-analysis of the deposited data

How the results depend on the processing

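Of 249 alternative values of the 4 arms against control, 237 kept their direction and their side of the threshold, and of 72 arm differences 66 did. Many of these could not change direction, because some settings leave the fold change or arm difference as it is. These are the detection filter, the block, the variance model and the fit of only the groups compared. Leaving out an array of another drug likewise leaves a drug's value unchanged. With the percentile over all probes the sign turned for miR-221-3p (0.231 with risperidone, 0.390 with clozapine) and miR-222-3p (0.326 and 0.350), a setting in which the median of all miRNAs was also above 0. With normexp it turned for miR-221-5p (0.419 and 1.06) and for the arm difference of miR-221 (-0.0909, -0.816 and -1.42 with haloperidol, risperidone and clozapine). The cause was not tested. Leaving out 1 array, miR-222-5p ranged from -0.252 to 1.43 with haloperidol, -0.176 to 1.51 with risperidone and -0.142 to 1.54 with clozapine, and the arm difference of miR-222 from -1.93 to -0.0830, -1.85 to -0.0026 and -1.92 to -0.0724, the ends being the fits without control replicate 1 and without control replicate 2. The number of miRNAs called over all 243 then ranged from 0 to 5, 0 to 6 and 0 to 7. With the replicate block it was 0, 1 and 2, and the block changed no call of an arm or an arm difference. Low signal limits miR-221-5p, which lay at or near the floor under each drug: with the floor at 0.5 of its value it was at -1.22 with risperidone and -0.924 with clozapine, and the arm difference of miR-221 at 0.865 and 0.668.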
